A study of Homo sapiens with 9 samples.

Results

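The genes described here make cholesterol and fatty acids or control that supply, and 34 of them were followed in ALL-SIL, an established human T-cell acute lymphoblastic leukemia line. Members were taken by name as targets of the sterol regulatory element binding proteins (SREBPs) and sterol efflux genes, and for each gene the probe with the highest mean signal on the 9 arrays was read. Of the 34, 30 had a probe that could be tested, among 14680 genes tested in all. RNA was hybridised to one-colour Agilent arrays. Cells had received control siRNA, *PHF6* siRNA1 or *PHF6* siRNA2 by electroporation, with 3 independent replicates per group, so every group shares the electroporation and no array shows untouched cells. *PHF6* encodes a chromatin-associated zinc finger protein that is recurrently inactivated in this leukemia. The methods name a Silencer Select reagent and a pooled ON-TARGETplus reagent against *PHF6*, and which of them is siRNA1 was not given. Treatment labels put collection at 96 h after electroporation, while the free-text description of the same samples gives 72 h. Replicates 1 and 2 shared a slide and replicate 3 lay on another slide, and each treatment kept the same column of the slide, so that treatment and column cannot be told apart.

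Cells sense sterol in the membrane of the endoplasmic reticulum. When sterol is scarce, SCAP carries the SREBP precursors to the Golgi, where proteases release the fragment that enters the nucleus and switches on genes of sterol and fatty acid synthesis. When sterol is plentiful, INSIG proteins hold SCAP back. SREBP2 (*SREBF2*) mainly drives cholesterol synthesis and SREBP1 (*SREBF1*) mainly drives fatty acid synthesis, whereas sterol efflux pumps such as *ABCA1* and *ABCG1* are switched on by oxysterol-sensing LXR receptors. Proliferating lymphoid cells depend on both supplies for membrane growth.

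The promoters of 3 members, chosen by name, are printed as examples of where motifs known for this control lie. RefSeq (GRCh38.p14) windows from 250 bases before to 50 bases after the start were found for 30 of the 34 members, and for none of *SQLE*, *FDFT1*, *ABCG1* and *FASN*. Both strands were searched for TCACNCCAC (the core of a sterol regulatory element), for the palindromic E-box CACGTG and for CCAAT, the box bound by NF-Y. No letters of these motifs overlapped in the printed windows. *SREBF2* held the sterol core and a CCAAT box, *INSIG1* an E-box and a CCAAT box, and *DHCR7* a pair of CCAAT boxes on opposite strands. The 250 bases before each start follow, 5′ to 3′ on the gene's strand, with matches in capitals (ATTGG is CCAAT read on the other strand).
SREBF2, chr22:41832855-41833104, plus strand: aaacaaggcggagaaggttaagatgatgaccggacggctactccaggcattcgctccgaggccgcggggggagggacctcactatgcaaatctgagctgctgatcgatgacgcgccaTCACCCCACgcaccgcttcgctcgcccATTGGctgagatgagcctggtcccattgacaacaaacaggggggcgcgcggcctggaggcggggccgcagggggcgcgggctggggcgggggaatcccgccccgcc
INSIG1, chr7:155297628-155297877, plus strand: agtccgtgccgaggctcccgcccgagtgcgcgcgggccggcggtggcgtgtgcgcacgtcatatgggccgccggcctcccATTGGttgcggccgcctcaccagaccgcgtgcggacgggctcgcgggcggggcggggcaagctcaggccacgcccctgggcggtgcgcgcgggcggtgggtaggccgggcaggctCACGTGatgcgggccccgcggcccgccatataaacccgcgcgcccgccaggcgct
DHCR7, chr11:71448394-71448643, minus strand: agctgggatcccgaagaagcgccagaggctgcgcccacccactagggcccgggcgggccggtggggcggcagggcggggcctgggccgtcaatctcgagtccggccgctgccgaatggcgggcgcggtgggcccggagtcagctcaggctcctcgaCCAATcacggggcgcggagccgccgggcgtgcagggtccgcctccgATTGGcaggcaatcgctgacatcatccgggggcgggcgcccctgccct

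Across the 30 members with a window, 22 (73.3%) held CCAAT, against 43.0% of the 11581 tested genes with a window and 39.7% of all 27305 genes in the reference. These 30 include *CYP51A1*, *ACSS2*, *ABCA1* and *MYLIP*, which had no tested probe, so the members were not limited to tested genes. CACGTG was present in 5 members (16.7%), namely *LSS*, *SC5D*, *INSIG1*, *SCAP* and *ABCA1*, against 11.8% of tested genes and 8.77% of all genes. TCACNCCAC was found only in *SREBF2* among these windows (3.33% of members), against 1.47% of tested genes and 1.39% of all. A match describes letters and is not evidence of binding.

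Values are on the generalized log2 scale of VSN, a variance-stabilizing normalization, so a difference of 1 is a doubling for bright probes. The targeted gene followed the labels. *PHF6* read 11.07, 11.17 and 10.86 in control replicates 1, 2 and 3, 9.39, 9.69 and 9.12 with siRNA1, and 9.20, 9.28 and 9.14 with siRNA2. Every siRNA array lay below every control array (log2 fold change for both siRNAs -1.73 ± 0.14 SE, n = 6 against 3, limma adjusted p = 0.00248). All 8 markers examined for this T-cell leukemia line, among them *CD3D*, *CD7* and *TLX1*, were well above background on 9 arrays. Their median normalized values ran from 9.02 to 16.60. Also well above background on 9 arrays were *CD79A*, a B-lineage marker (median 12.33), and the myeloid markers *CD14* (6.48) and *ITGAM* (5.77). Other markers passed on fewer arrays: the B-lineage genes *PAX5* on 2 and *MS4A1* on 3, the myeloid genes *CSF1R* on 6 and *MPO* on 7. What these markers contribute to the results was not tested. Between 29662 and 33736 probes per array were well above background. Over all 33586 probes tested, 3 passed an adjusted p of 0.05 for both siRNAs against control, and 919 passed once the replicate number was added as a block.

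The members measured well were measured on every array: all 30 were well above background on 9 of 9 arrays. *CYP51A1*, which removes the lanosterol methyl group, *ACSS2*, which makes acetyl-CoA from acetate, and *MYLIP*, an LXR-induced ubiquitin ligase for lipoprotein receptors, were above background on 0 arrays. *ABCA1*, the cholesterol efflux pump, passed on 1 array with 1 of its 2 probes. These 4 genes have no fold change here.

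Most members sat lower with the siRNAs, by small amounts. The log2 fold change was below 0 for 28 of 30 members, against 58.9% of all genes, and its median was -0.20 against -0.036 over all genes. The individual differences ran from -0.42 to 0.056. No member passed the limma test over all probes without a block (0 of 30 called). Of all genes 0.00681% were called, which was *PHF6* alone. In the same test 5 members had an unadjusted p under 0.05, against 6.38% of all genes. With the replicate block, which removes the shift shared by same-numbered arrays, 1 member was called lower, *DHCR7*, against 1.21% of all genes; at an unadjusted p under 0.05 the blocked fit had 11 of 30 members, against 19.1% of all genes. In bulk RNA, fewer cells of a kind and less RNA per cell cannot be told apart.

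**Figure D1:**
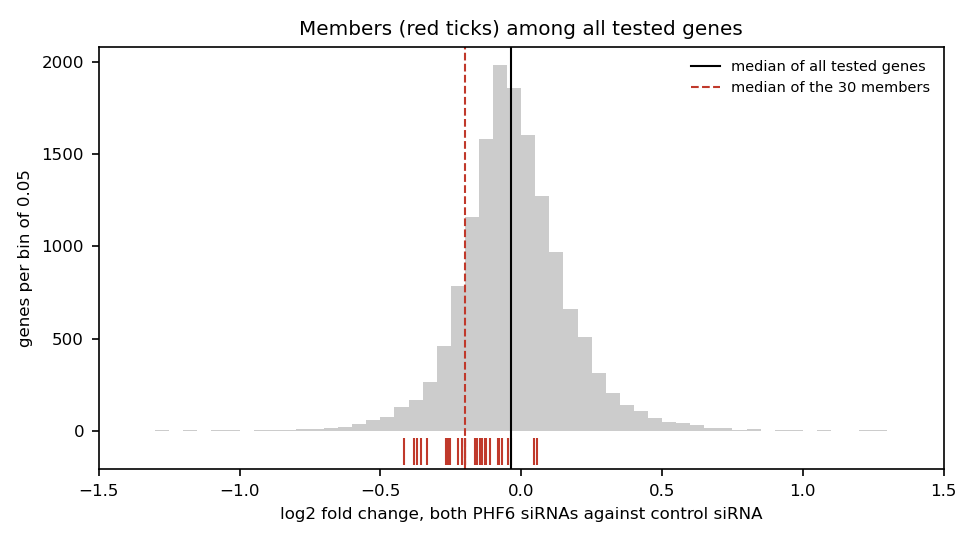
Histogram of the log2 fold change of both PHF6 siRNAs against control siRNA (x axis) over all tested genes (y axis, genes per bin of 0.05; 4 genes beyond 1.5 in either direction are not drawn). Red ticks under the axis mark the 30 members, of which 28 lie below 0; the dashed red line is their median (-0.20) and the black line the median of all genes (-0.036).

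*DHCR7*, the reductase of the last step to cholesterol, read 11.53, 11.40 and 11.71 in control replicates 1, 2 and 3. It read 11.15, 11.14 and 11.52 with siRNA1 and 10.97, 10.68 and 11.31 with siRNA2. Within each replicate number the order was control, siRNA1, siRNA2, but the siRNA1 array of replicate 3 exceeded the control array of replicate 2. The log2 fold change for both siRNAs was -0.42 ± 0.16 (SE), a ratio of 0.749, with a limma adjusted p of 0.646 without the block and 0.0428 with it (SE 0.090). The same test gave -0.56 for siRNA2 (adjusted p = 0.822 without and 0.0369 with the block, background 0.804% lower) and -0.28 for siRNA1 (0.881 and 0.189, background 0.545% lower). An exact two-sided permutation of 6 against 3 arrays gave p = 0.0714 unadjusted, where 84 splits allow no less than 0.0119. Moving the control position within replicate numbers gave an exact p of 0.0741, where 27 arrangements allow no less than 0.037. The blocked call was lost on leaving out any 1 of the 3 replicate numbers, and also when the processed signal took the place of the median intensity.

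The other enzymes of cholesterol synthesis pointed the same way without passing the test. All 16 measured enzymes had a log2 fold change below 0, with a median of -0.20 and a range of -0.42 to -0.079. The count was 14 without the control array of replicate 2, where *MSMO1* and *HSD17B7* had 0.0022 and 0.034. It was 15 without the control array of replicate 3 (*MVD* 0.021) or without the siRNA1 or the siRNA2 array of replicate 1 (*MSMO1* 0.060 and 0.024). In the mevalonate steps, *HMGCS1*, which makes HMG-CoA, had -0.21 ± 0.23 (SE), the kinases *MVK* and *PMVK* had -0.12 and -0.23, the decarboxylase *MVD* had -0.15 and the isomerase *IDI1* had -0.13. Of these, only *PMVK* was lower than its own control on 6 of 6 siRNA arrays. In the steps to squalene and lanosterol, the farnesyl diphosphate synthase *FDPS* had -0.14, the squalene synthase *FDFT1* -0.26, the squalene epoxidase *SQLE* -0.25 and the lanosterol synthase *LSS* -0.20. *FDPS*, *FDFT1* and *LSS* were lower on 6 of 6 arrays and *SQLE* on 5. Among the later sterol enzymes, the C4-demethylation genes *MSMO1*, *NSDHL* and *HSD17B7* had -0.082, -0.20 and -0.079, the C14 reductase *TM7SF2* had -0.25, the isomerase *EBP* -0.20 and the desaturase *SC5D* -0.33. *SC5D* was lower on 6 of 6 arrays and the rest of these on 4 or 5.

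*SC5D* and *HMGCS1* show how far the arrays spread. *SC5D* read 7.60, 7.73 and 7.72 in the controls, 7.45, 7.13 and 7.20 with siRNA1, and 7.40, 7.30 and 7.62 with siRNA2. Here siRNA1 gave the lower mean, and the siRNA2 array of replicate 3 reached the range of the controls (limma adjusted p = 0.646, with the block 0.105). *HMGCS1* read 10.78, 11.42 and 11.28 in the controls, 10.58, 11.06 and 11.29 with siRNA1, and 10.81, 10.52 and 11.43 with siRNA2. Its replicate 2 held both the highest control and, with siRNA2, the lowest of all 9 arrays, while replicates 1 and 3 with siRNA2 lay above their own controls.

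Fatty acid genes gave the lowest group median. All 7 measured members had a log2 fold change below 0 (6 with normexp and quantile normalization, where *SCD* had 0.0072), with a median of -0.26, and 5 of them, *FASN*, *FADS1*, *FADS2*, *ELOVL6* and *ACLY*, were lower than their own control on 6 of 6 arrays. *FADS2*, the delta-6 desaturase, read 12.81, 12.89 and 12.98 in the controls, 12.50, 12.53 and 12.68 with siRNA1, and 12.46, 12.25 and 12.66 with siRNA2. No siRNA array reached a control array. The log2 fold change was -0.38 ± 0.12 (SE, limma adjusted p = 0.644, with the block 0.0534). The exact two-sided permutation p was 0.0119 unadjusted, the smallest that 84 splits can give, among 30 members computed. *PMVK* had the same permutation p. *FADS1*, the delta-5 desaturase that lies beside *FADS2*, read 12.30, 12.11 and 11.85 in the controls, 11.83, 11.87 and 11.65 with siRNA1, and 11.73, 11.52 and 11.71 with siRNA2. Here the lowest control, replicate 3, lay just under the siRNA1 array of replicate 2 (-0.37 ± 0.13 SE, adjusted p = 0.646, with the block 0.0799).

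*FASN*, the fatty acid synthase, read 11.47, 11.04 and 11.37 in the controls, 11.07, 10.59 and 11.19 with siRNA1, and 10.83, 10.75 and 11.19 with siRNA2. Control replicate 2 lay among the siRNA arrays (-0.35 ± 0.17 SE, limma adjusted p = 0.705, with the block 0.0852). *ACLY*, which supplies cytosolic acetyl-CoA, had -0.26 and no overlap between siRNA and control arrays (2.75% of all genes had none in this direction). That separation was nearly a tie, with 10.865 in control replicate 1 and 10.863 with siRNA2 in replicate 1. *ELOVL6*, the elongase of saturated chains, also had -0.26, and the carboxylase *ACACA* had -0.16 with 5 of 6 arrays lower. *SCD*, the stearoyl-CoA desaturase, read 11.16, 11.29 and 11.24 in the controls, 11.00, 11.18 and 11.16 with siRNA1, and 11.16, 11.21 and 11.39 with siRNA2. The groups overlapped (-0.045 ± 0.11 SE, adjusted p = 0.951, with the block 0.791), and the difference between *SCD* and the other desaturases was not tested.

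**Figure D2:**
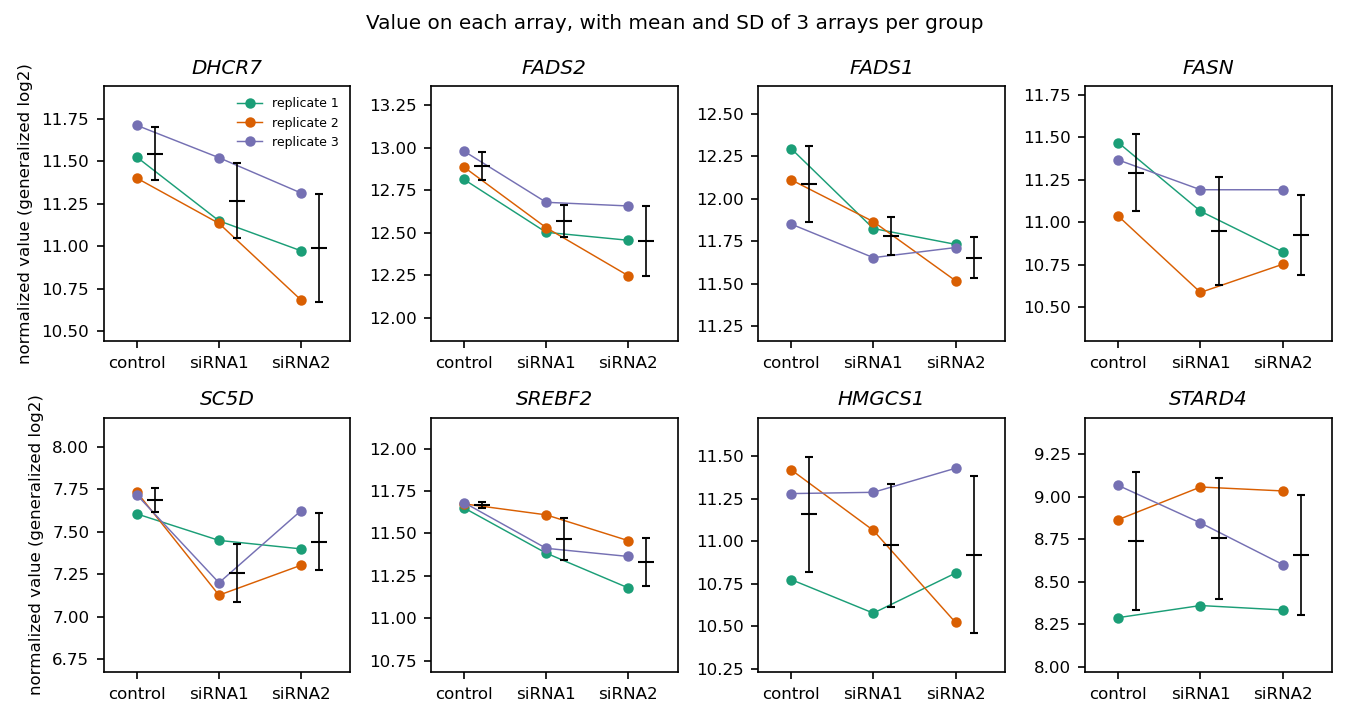
Normalized value (generalized log2, y axis, each panel spanning 1.5) of 8 members on each of the 9 arrays, by group (x axis). Points of a replicate number share a colour and are joined, and the black marks give the mean and SD of 3 arrays; FADS2 and SREBF2 siRNA arrays all lie below their controls, while HMGCS1 and STARD4 spread more by replicate number than by group.

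Among the regulators the differences had both signs. *SREBF2* read 11.65, 11.67 and 11.68 in the controls, 11.38, 11.61 and 11.41 with siRNA1, and 11.18, 11.46 and 11.36 with siRNA2. The controls lay close together (SD 0.016, n = 3) and above every siRNA array (-0.27 ± 0.11 SE, limma adjusted p = 0.655, with the block 0.112). *SREBF1* read 13.84, 13.49 and 13.22 in the controls, 13.78, 13.34 and 13.45 with siRNA1, and 13.94, 13.52 and 13.41 with siRNA2. Its groups overlapped throughout (0.056 ± 0.18 SE, adjusted p = 0.963, with the block 0.759).

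*SCAP*, the escort of the SREBPs, read 11.86, 11.69 and 12.11 in the controls, 11.78, 11.55 and 12.03 with siRNA1, and 11.65, 11.78 and 11.87 with siRNA2. *INSIG1*, its sterol-dependent anchor, read 12.16, 12.70 and 12.37 in the controls, 12.05, 12.51 and 12.44 with siRNA1, and 12.02, 12.32 and 12.71 with siRNA2. *STARD4*, a sterol transfer protein, read 8.29, 8.87 and 9.07 in the controls, 8.36, 9.06 and 8.85 with siRNA1, and 8.33, 9.04 and 8.60 with siRNA2. All of these overlapped between groups, with log2 fold changes of -0.11, -0.070 and -0.035 (limma adjusted p 0.901, 0.955 and 0.985).

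Of the genes that move sterol out of membranes or lysosomes, *ABCG1* had a log2 fold change of -0.16 with 4 of 6 arrays lower. *NPC1*, which exports cholesterol from lysosomes, read 9.66, 9.44 and 9.36 in the controls, 9.72, 9.29 and 9.49 with siRNA1, and 9.64, 9.73 and 9.35 with siRNA2. With *SREBF1* it was one of the 2 members whose log2 fold change was above 0 (0.047 ± 0.14 SE, limma adjusted p = 0.961).

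Counted by array, 12 of 30 members were lower than their own control on 6 of 6 siRNA arrays (14.1% of all genes), 7 on 5 of 6 and 11 on 4 or fewer. In 4 members, *PMVK*, *SREBF2*, *FADS2* and *ACLY*, every siRNA array lay below every control array (2.75% of all genes). For *ACLY* the siRNA2 array of replicate 1 differed from its own control by only -0.0017. The median of the members against their own controls was -0.16 and -0.20 in replicate 1 for siRNA1 and siRNA2, -0.23 and -0.34 in replicate 2, and -0.088 and -0.14 in replicate 3. Over all genes the same medians were -0.036 and -0.0038 in replicate 1 and -0.10 and -0.043 in replicate 2. In replicate 3 they were -0.019 and 0.0020. In the members and over all genes alike, replicate 2 had the lowest medians and replicate 3, on the other slide, the ones nearest to 0. The siRNA2 array of replicate 2 held the lowest of the 6 differences for *HMGCS1*, *SQLE*, *DHCR7* and *FADS2*, among others.

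**Figure D3:**
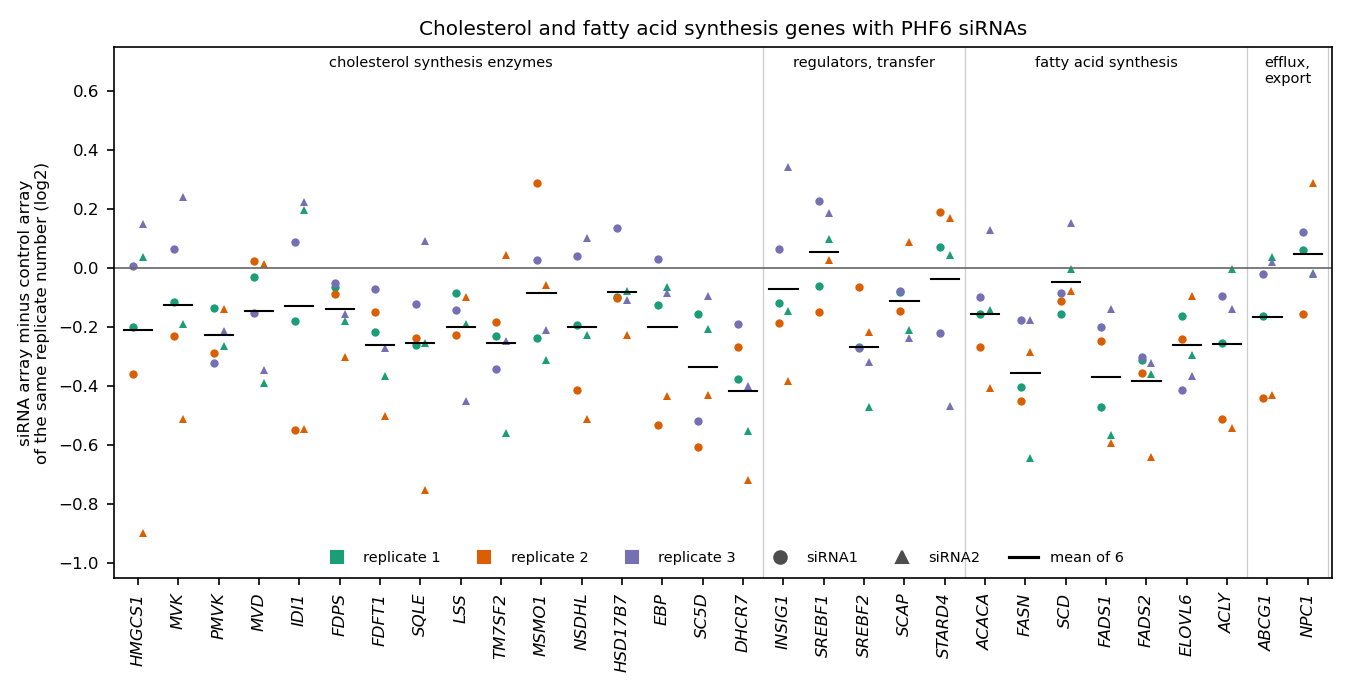
Difference between each siRNA array and the control array of its replicate number (y axis, log2) for the 30 members (x axis, grouped by role). Colour gives the replicate number, circles are siRNA1, triangles siRNA2, and the black line is the mean of 6. In 12 members all 6 points lie below 0 (14.1% of all genes), and replicate 2 (orange) holds the lowest point of 19 of the 30. The share of all genes with their lowest point in replicate 2 is not given, but the medians over all genes were also lowest there (-0.10 and -0.043).

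Between the siRNAs, 0 of 30 members were called, without or with the block (0.0341% of all genes were called with the block). At an unadjusted p under 0.05 in limma the count was 0 without the block, against 2.38% of all genes, and 2 with it, against 9.09%. *DHCR7* had the lowest difference of siRNA2 from siRNA1, -0.28 ± 0.19 (SE; adjusted p = 1.00, with the block 0.464), and *SC5D* the highest, 0.18. The median was -0.023 against 0.028 over all genes. The p-values above the threshold do not show that the reagents act alike, and both comparisons with control use the same control arrays.

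In total 4 members had more than 1 probe that could be tested, and the probes did not always point the same way. The dimmer probe of *LSS* had a log2 fold change of 0.11 where the brighter had -0.20. *HSD17B7* gave -0.079 with its brightest probe and -0.10 and 0.14 with the others, *SREBF1* 0.056 and -0.19, and *ACACA* -0.16 and 0.0033.

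Differences between replicate numbers ran wider than those between treatments, from -0.76 to 0.74 for replicate 2 against replicate 1. Replicate 2 was set against replicate 1 on the same slide, with treatment as a term, and 5 of 30 members were called, against 9.60% of all genes. *MSMO1* and *STARD4* were higher, and *ELOVL6*, *LSS* and *SREBF1* lower. The median of the members was -0.069 against -0.035 over all genes. The 3 arrays of a number may share a culture and each number lay in its own row of the slide, so number, culture and row cannot be told apart.

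*MSMO1*, the C4-methylsterol oxidase, read 8.16, 7.92 and 7.85 in replicate 1 and 8.63, 8.92 and 8.58 in replicate 2 (control, siRNA1, siRNA2). In replicate 3 it read 8.60, 8.63 and 8.39. The ranges of replicates 1 and 2 were far apart (0.74 ± 0.11 SE, a ratio of 1.66, limma adjusted p = 0.00491). *STARD4*, whose values are given above, likewise had all arrays of replicate 2 above those of replicate 1 (0.66 ± 0.13 SE, a ratio of 1.58, adjusted p = 0.0125). *INSIG1* had 0.43 ± 0.13 (SE; adjusted p = 0.0751) and *HMGCS1* 0.28 ± 0.18 (SE; adjusted p = 0.384), and neither passed. Without the siRNA2 array of replicate 2 both passed, at 0.57 (adjusted p = 0.0447) for *INSIG1* and 0.57 (adjusted p = 0.0307) for *HMGCS1*, whereas without the control array of that replicate *HMGCS1* had 0.072. *INSIG1* passed in 4 of the 19 settings tried and *HMGCS1* in 1. In the opposite direction, *ELOVL6* read 9.41, 9.25 and 9.12 in replicate 1, 8.61, 8.37 and 8.52 in replicate 2, and 8.78, 8.37 and 8.41 in replicate 3. Replicate 1 stood above all other arrays (-0.76 ± 0.10 SE for replicate 2 against 1, a ratio of 0.592, adjusted p = 0.0030). *LSS* read 11.71, 11.63 and 11.52 in replicate 1, 11.18, 10.96 and 11.09 in replicate 2, and 11.37, 11.23 and 10.92 in replicate 3 (-0.54 ± 0.11 SE, adjusted p = 0.0156; its dimmer probe -0.61, adjusted p = 0.0214).

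*SREBF1* was also lower in replicate 2 than in replicate 1 (-0.40 ± 0.10 SE, limma adjusted p = 0.0424), although its dimmer probe gave -0.067 (adjusted p = 0.788). *ACACA* read 11.71, 11.56 and 11.57 in replicate 1, 11.50, 11.24 and 11.10 in replicate 2, and 11.30, 11.20 and 11.43 in replicate 3, and did not pass (-0.34 ± 0.12 SE, adjusted p = 0.103). *FASN* had -0.33 ± 0.12 (SE; adjusted p = 0.117). *SREBF2* had 0.18 and *SCAP* -0.088, neither past the threshold. *MSMO1* and *ELOVL6* were called in all 19 settings tried, *STARD4* and *LSS* in 15 and *SREBF1* in 7. Without the siRNA1 array of replicate 1 or the siRNA1 array of replicate 2, only *MSMO1* and *ELOVL6* of the 30 were called, and without the control or the siRNA2 array of replicate 1, 3 members were.

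**Figure D4:**
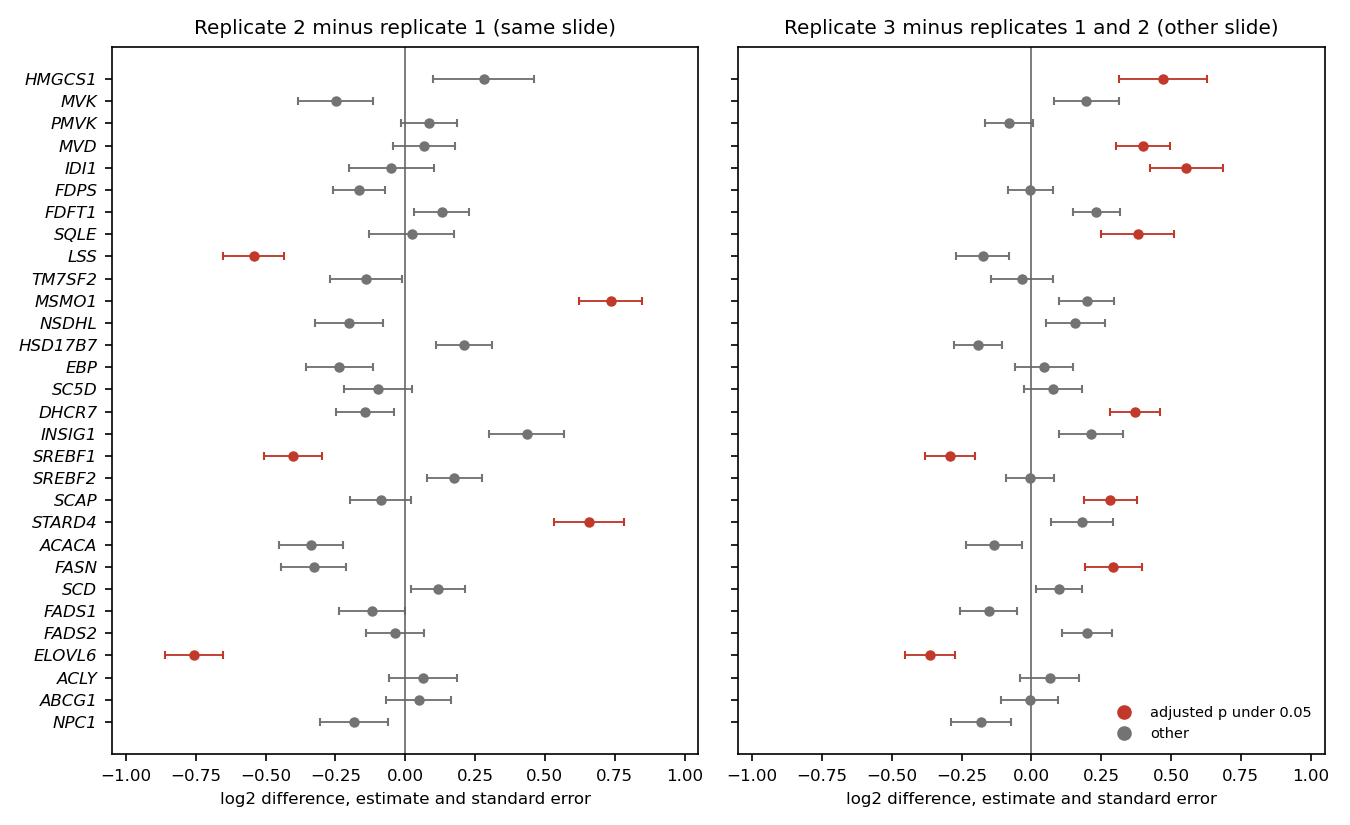
Log2 difference (x axis) with its standard error for the 30 members (y axis) between replicate 2 and replicate 1 (left) and between replicate 3 and replicates 1 and 2 (right), with treatment in the fit. Red marks an adjusted p under 0.05; on the left MSMO1 and STARD4 are higher and ELOVL6, LSS and SREBF1 lower, and on the right 7 members are higher and 2 lower.

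Replicate 3 was set against replicates 1 and 2, from which its slide and scan cannot be told apart. Here 9 of 30 members were called, 7 higher (11.3% of all genes) and 2 lower (18.6%), and the median was 0.089 against -0.034 over all genes. *IDI1* read 11.17, 10.99 and 11.36 in replicate 1, 11.49, 10.94 and 10.94 in replicate 2, and 11.60, 11.69 and 11.82 in replicate 3. *MVD* read 9.86, 9.83 and 9.47 in replicate 1, 9.78, 9.80 and 9.79 in replicate 2, and 10.32, 10.17 and 9.98 in replicate 3. Replicate 3 was above every other array for both genes, by 0.55 ± 0.13 (SE; limma adjusted p = 0.0117) and 0.40 ± 0.10 (SE; adjusted p = 0.0121).

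*DHCR7* (0.37, limma adjusted p = 0.0127), *HMGCS1* (0.47, 0.0431), *SQLE* (0.38, 0.0484), *SCAP* (0.28, 0.0435) and *FASN* (0.29, 0.0489) completed the higher set. *SQLE* read 12.49, 12.23 and 12.24 in replicate 1, 12.67, 12.43 and 11.92 in replicate 2, and 12.72, 12.60 and 12.81 in replicate 3, so that the control of replicate 2 lay within the range of replicate 3. *ELOVL6* (-0.36, adjusted p = 0.0138) and *SREBF1* (-0.29, 0.0335) were lower. The arrays of *ELOVL6* in replicate 3 lay near those of replicate 2. Of the 16 enzymes of cholesterol synthesis 5 were called higher and 0 lower, and of the 7 fatty acid genes 1 was called in each direction. The count depended on the processing and on single arrays: it was 2 with VSN on the processed signal and 16 with normexp and quantile normalization, and 0 without the siRNA2 array of replicate 3. Without the siRNA1 array of replicate 3 it was 2, without that of replicate 1 it was 4, and without the control or the siRNA2 array of replicate 1 it was 5. The shares of all genes above belong to the main fit. Those for the other settings are not given, so these counts cannot be set against a background.

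The wider pathway had a smaller median. Of 38 further genes of sterol and fatty acid handling, 36 were tested, and 22 had a log2 fold change below 0 for both siRNAs, a share near the 58.9% of all genes, with a median of -0.071. The range was wider than that of the members, from -0.45 to 0.81 against -0.42 to 0.056. For siRNA2 alone 18 of the 36 were lower and 18 higher, with a median of 0.00031 (-0.016 over all genes). For siRNA1 24 were lower, with a median of -0.10 (-0.053 over all genes). None passed for both siRNAs without the block (5 at an unadjusted p under 0.05 in limma, against 6.38% of all genes), and 1 of 36 was called lower with it, against 1.21%. This was *INSIG2*, the second INSIG protein, which read 9.94, 10.18 and 9.77 in the controls, 9.50, 9.86 and 9.47 with siRNA1, and 9.42, 9.42 and 9.43 with siRNA2 (-0.45 ± 0.13 SE, adjusted p = 0.644, with the block 0.0447). By replicate number, 3 of 36 were called for replicate 2 against 1, a share near the 9.60% of all genes, with *ELOVL5* higher (0.45, adjusted p = 0.028) and *LPCAT3* (-0.69, 0.00642) and *FADS3* (-0.56, 0.0288) lower. For replicate 3, 2 were called higher (11.3% of all genes) and 2 lower (18.6%), with *TMEM97* (0.37, 0.0108) and *ELOVL5* (0.32, 0.0235) higher, and *GGPS1* (-0.41, 0.00707) and *CH25H* (-1.32, 0.00441; well above background on 5 arrays) lower.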

How the data were processed

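For each array the authors deposited the intensity of every spot from Agilent Feature Extraction (10.5.1.1 per the file headers, 9.1 in the submitters' notes), without normalization between arrays. Their deposited flags, 0 or 1 per spot, say whether a spot was well above background, an outlier or saturated. A deposited table of log2 values, normalized by the authors with VSN, served as an alternative. Here the VSN model was fitted by code written for this work to the median intensity without background subtraction (7 iterations, quantile 0.9). Outlier spots were left out and repeated spots averaged. Of 57176 probes, 33586 exceeded background clearly on 3 or more arrays and were tested. Symbols came from matching transcript identifiers to RefSeq (25729 probes matched).

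Comparisons used limma 3.58.1 (R 4.3.3) on all 9 arrays. Adjustment followed Benjamini and Hochberg across the tested probes, at a threshold of 0.05. The fit was tested on simulated data with changes larger than any treatment difference of a member. That test does not cover changes as small as theirs. Replicate numbers come from the sample titles. Deviations from the group means correlated at 0.31 to 0.75 in the 9 pairs of same-numbered arrays (median 0.60). In the 18 other pairs they correlated at -0.57 to 0.13. Deviations cancel within each group, so high values in same-numbered pairs push the other pairs down, and these ranges are not independent. The numbers were taken to pair the arrays, and blocked values are given where they bear on a call. Array number and signal over background limit the precision.

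Members, lists and tests were chosen with earlier results of these data known. Values on every array are given for members called in a comparison, the 4 highest and 4 lowest for both siRNAs and for replicate 2 against 1, and *SREBF1*, *SREBF2*, *SCAP* and *INSIG1*. *SC5D*, *PMVK* and *ACLY* were named after their values were seen. Alternatives were other intensities, scaling to the 75th percentile, normexp (offset 50) with quantile normalization, the deposited table, other probe filters, the mean of all probes, replicate number or slide as a block, a trended robust prior, no treatment term, and leaving out each array. The blocked fit combined with other normalizations was added after seeing the data. One of the B-lineage markers examined is not reported here.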

Additional observations from a re-analysis of the deposited data

Results flagged for a closer look

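In 4 of 30 members (13.3%, against 6.55% of 14663 genes) all siRNA arrays of one slide differed from their own controls in the direction opposite to those of the other slide; the difference between slides was not tested. The mean difference on the slide of replicates 1 and 2 and on that of replicate 3 was -0.26 and 0.15 for *MVK*, -0.33 and 0.072 for *NSDHL*, and -0.21 and 0.20 for *INSIG1*. For *STARD4* it was 0.12 and -0.34. The second slide holds 1 array of each group, so that slide, scan and replicate number cannot be told apart.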

How the results depend on the processing

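The median of the members for both siRNAs against control was -0.22 to -0.14 over 20 alternatives, against -0.071 to -0.012 over all genes. Below 0 were 24 to 29 of the 30 members (24 without control replicate 2), against 54.1% to 65.2% of all genes. *SREBF1*, *NPC1*, *INSIG1*, *STARD4*, *MSMO1*, *HSD17B7*, *MVD* and *SCD* changed sign in some alternatives, none past the threshold; *SCD* did so only with normexp and quantile normalization, and *MSMO1*, *HSD17B7* and *MVD* only on leaving out single arrays. The median of the members was -0.096 to -0.032 for replicate 2 against 1, against -0.048 to -0.021 over all genes. It was 0.019 to 0.17 for replicate 3 against 1 and 2, against -0.086 to 0.041 over all genes. No alternative without the replicate block called a member for either siRNA. With the replicate block the count was 1 for both siRNAs and 1 for siRNA2 (0 without it), and it changed no other count of members between treatments. That blocked count was 0 to 0 on leaving out replicate 1, 2 or 3, for both siRNAs and for siRNA2. It was 0 in both comparisons for the replicate block with VSN on the processed signal or with the 75th percentile. With normexp and quantile normalization it was 2 for both siRNAs (*DHCR7* and *FADS2*) and 3 for siRNA2, and the deposited table gave 2 for both siRNAs. The count for replicate 2 against 1 was 5, 3 without a probe filter, and 2 to 5 on leaving out single arrays. Scaling the processed signal, by VSN or by its 75th percentile, lowered it to 4, as did dropping the treatment term. Quantile normalization after normexp raised it to 6 by adding *INSIG1*. The count for replicate 3 was 9. It was 5 with VSN after subtracting the local background, 2 with the processed signal, 4 with the 75th percentile, 16 with normexp and quantile normalization, 4 without a probe filter, 4 with no treatment term, and 0 to 8 without single arrays. The causes were not tested, and the shares of all genes called in the same settings are not given. Dim probes (*CYP51A1*, *ACSS2*, *ABCA1*, *MYLIP*) give no value.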
